A study of Mus musculus with 15 samples.

Results

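The comparison described here sets whole cortex of exercised SAMP8 mice against whole cortex of sedentary SAMP8 mice, both adult and female. It rests on 10 of the 15 one-colour Agilent arrays of the study. The 5 arrays titled as exercised SAMP8 (replicates 11 to 15) and the 5 titled as sedentary SAMP8 (replicates 6 to 10) were taken by their titles alone. The remaining 5 arrays came from sedentary adult female SAMR1 mice (replicates 1 to 5). They entered the estimate of the spread, the choice of each gene's feature and the intensity quintiles, but not the difference itself. They also entered 1 description of correlated genes and the scores of 1 gene list. SAMP8 is an inbred senescence-prone mouse strain with early memory loss, and SAMR1 is its senescence-resistant control strain. All animals of the comparison were thus SAMP8, and there was no exercised SAMR1 group. The kind, dose and duration of the exercise, and the time between the last bout and the freezing of the tissue, are missing from the labels. Each array is labelled as a separate biological replicate, with no word on whether it held RNA of 1 animal or of a pool, so p-values measure the spread between these arrays, which may be technical in part.

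Physical exercise is known in rodents to raise neurotrophin production in the brain, above all of brain-derived neurotrophic factor, and to act on blood vessels, mitochondria and glia through factors released by muscle, liver and neurons themselves. A separate layer of response is that of activity-induced genes, such as Fos and Arc, which neurons transcribe within minutes of firing and which return to baseline soon after. Expression of both kinds, with those of energy metabolism, protein quality control, synapses and the cell types of the cortex, was read here as the log2 of Cy3 spot intensity, a relative measure of the amount of each RNA, with 1 array feature for each of 16401 genes. Differences are exercised minus sedentary means on the log2 scale, with their standard error (SE) from limma, and n is 5 arrays in each group throughout.

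The arrays carried the profile of cortex. Snap25, a vesicle fusion protein of neurons, had a mean of 15.36 on the sedentary and 15.45 on the exercised arrays, and Camk2a, the kinase of excitatory synapses, had 14.40 and 14.52. Layer genes were present in both groups, with Bcl11b of the deep layers at 12.02 and 11.89, Cux2 of the upper layers at 9.77 and 9.64 and Tbr1 of early-born excitatory neurons at 9.41 and 9.52. Blood was present too, with the haemoglobin gene Hba-a1 at 13.21 and 13.16. For comparison, the lower quartile of all features lay between 71.7 and 72.8 on the linear intensity scale and the median between 207.8 and 208.8 on each array, so the distributions had nearly the same shape.

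No gene passed. Of 16401 genes tested with limma, 0 (0%) had an adjusted p under 0.05 after Benjamini-Hochberg adjustment, and the smallest adjusted p was 0.521. With an unadjusted p under 0.05 were 1162 genes (7.08% of those tested), 713 of them higher in exercised cortex (4.35%) and 449 lower (2.74%). The differences themselves were small: the median size was 0.10 log2 units, 90% of genes lay below 0.30 and 99% below 0.71. A difference past 2-fold was seen for 27 genes in the higher direction (0.165%) and 17 in the lower (0.104%), and 23 of these 44 genes belonged to the dimmest quintile of the genes. Past 1.5-fold there were 142 higher (0.866%) and 146 lower genes (0.89%). The lower genes at an unadjusted p under 0.05 thus were fewer than the higher ones, and among the brightest quintile of genes the counts were 71 lower and 229 higher.

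**Figure D1:**
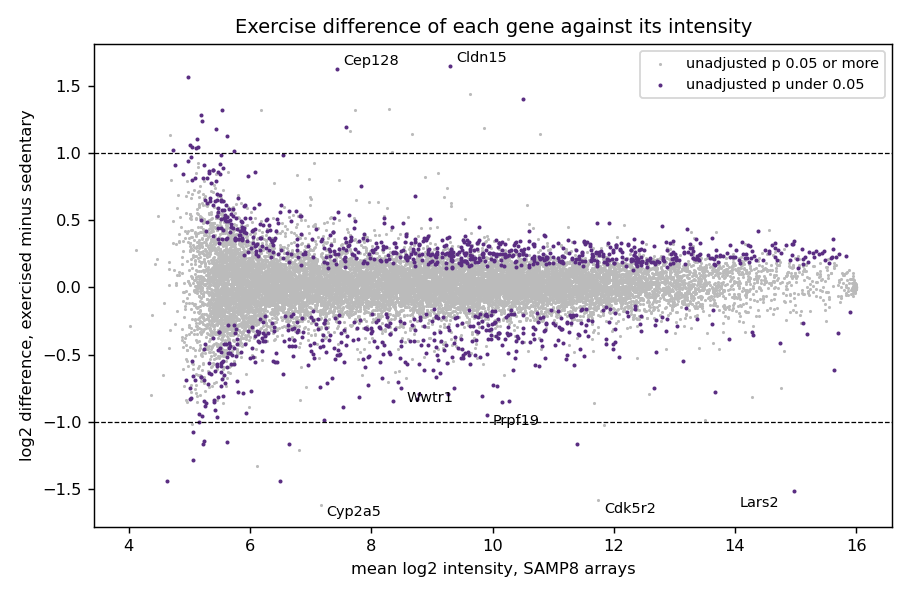
Difference of each gene between exercised and sedentary SAMP8 cortex (log2 units, vertical) against its mean log2 intensity over the 10 SAMP8 arrays (horizontal). Each point is 1 of 16401 genes, purple marks an unadjusted p under 0.05 and the dashed lines mark 2-fold, which 44 genes passed.

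The intervals bound the size of the difference. The median SE was 0.121 log2 units, which gave a median 95% confidence interval of 0.26 on either side of the estimate, or 1.20-fold. For 15462 genes (94.3%) the whole 95% interval lay inside a 2-fold difference either way, and for 12991 (79.2%) it lay inside 1.5-fold. These intervals hold gene by gene. With Bonferroni intervals, which cover all 16401 genes at once, 14513 genes (88.5%) lay inside 4-fold, 8382 (51.1%) inside 2-fold and 609 (3.71%) inside 1.5-fold. Dim genes were bounded worst: the share inside 1.5-fold by the 95% interval was 35.8% in the dimmest quintile of genes, and 83.0%, 88.8%, 93.4% and 95.1% in the next classes up to the brightest. The 939 genes whose 95% interval reached past 2-fold had a median log2 intensity of 5.46, against 8.97 for the rest.

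**Figure D2:**
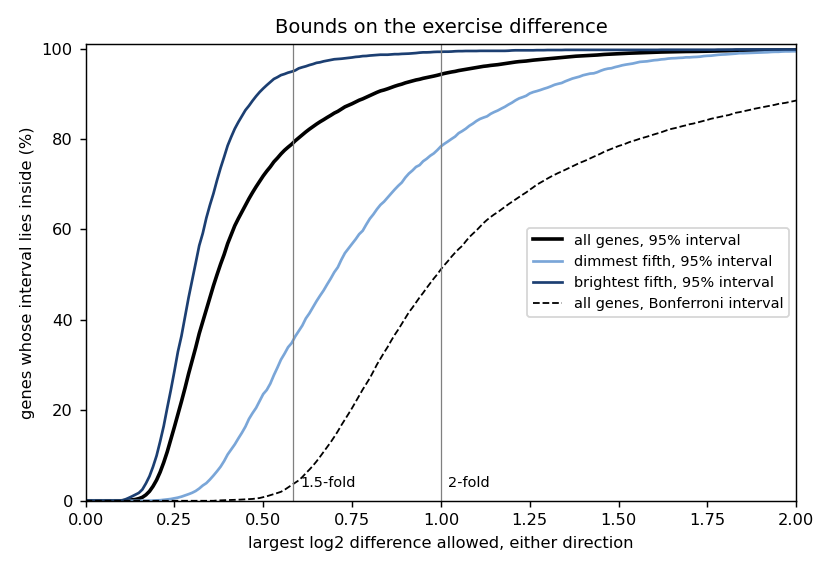
Share of genes (percent, vertical) whose interval for the exercised minus sedentary difference lies wholly within the log2 size on the horizontal axis. The 95% interval of all genes (black) lay inside 1.5-fold for 79.2% and inside 2-fold for 94.3%, the dimmest quintile (light blue) for 35.8% and the brightest quintile (dark blue) for 95.1% inside 1.5-fold, and the Bonferroni interval (dashed) inside 2-fold for 51.1%.

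Arrays of the same group differed about as much as arrays of different groups. The median SD of a gene was 0.179 log2 units among sedentary arrays and 0.183 among exercised arrays. Pairs of sedentary arrays correlated at 0.986 to 0.990 over all genes, pairs of exercised arrays at 0.984 to 0.989, and the 25 pairs that joined the groups at 0.980 to 0.991. The median root mean square difference of a pair was 0.392, 0.401 and 0.412 log2 units in that order. Group membership took a median of 7.75% of a gene's variance over the 10 arrays. Such a share lies above 0 even where groups do not differ, and its level in that case was not computed. On the first principal component, which held 22.1% of the variance, the sedentary arrays scored -25.82, -22.54, 4.98, -4.68 and 5.41 (replicates 6 to 10) and the exercised arrays 0.17, -10.29, 2.78, 16.73 and 33.25 (replicates 11 to 15). The groups overlapped on it, and its ends were sedentary replicates 6 and 7 and exercised replicates 14 and 15. Without exercised replicates 14 and 15, the number of genes at an unadjusted p under 0.05 was 580, again with 0 passing after adjustment in limma. That pair was chosen after the values were seen, and having fewer exercised arrays also lowers the power to reach that level.

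In the following, array values are given in log2 units, sedentary replicates 6 to 10 first and exercised replicates 11 to 15 second, in order of number. The 12 higher and 12 lower genes of smallest p, among named genes above the lower quartile of intensity, all had an adjusted p of 0.521. The groups did not overlap for 11 of the 12 higher genes and 6 of the 12 lower ones, beside 0.732% and 0.366% of all genes in the respective directions. Since low p chose these genes, that count describes them and supports nothing. The 12 lower genes lay 0.52 to 0.95 log2 units lower, and the 12 higher genes only 0.26 to 0.61 higher.

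Among the lower genes, Prpf19, a ubiquitin ligase at the core of a spliceosome complex, had the smallest p of all (0.000126). It read 10.39, 10.53, 10.35, 10.46 and 10.18 on the sedentary arrays and 9.08, 10.10, 9.74, 9.12 and 9.16 on the exercised ones, a difference of -0.95 (SE 0.18, 95% interval -1.34 to -0.55, 0.519-fold). All exercised arrays were below all sedentary ones, with replicate 12 only just so. Dlg2, which encodes the postsynaptic scaffold PSD-93, read 10.94, 11.03, 10.43, 10.51 and 10.58 and then 9.74, 10.40, 10.26, 9.38 and 9.49, a difference of -0.85 (SE 0.20). Exercised replicate 12, at 10.40, again lay just below the lowest sedentary array. The 2 other features of Dlg2 gave only -0.14 and 0.09. Wwtr1, the Hippo pathway coactivator TAZ, read 8.92, 9.20, 8.90, 8.74 and 8.53 and then 8.00, 8.44, 8.44, 7.92 and 7.74, a difference of -0.75 (SE 0.17). Its groups did not overlap either.

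Rragd, a Rag GTPase that signals amino acid supply to mTORC1, differed by -0.58 (SE 0.13), Camk4, a calcium-dependent kinase of the neuronal nucleus, by -0.58 (SE 0.14), and Acta2, the actin of smooth muscle, by -0.53 (SE 0.13). The groups overlapped in all of them, by 1 exercised array for Rragd and Acta2 and by replicates 12 and 13 for Camk4. The 12 other features of Acta2 had a median of only -0.10, from -0.17 to 0.07. Ube4a, a ubiquitin chain elongation factor, differed by -0.89 (SE 0.20), and the RNA-binding protein gene Raly by -0.86 (SE 0.20). Kdelr1, the receptor that returns escaped proteins to the endoplasmic reticulum, differed by -0.73 (SE 0.18), and Kcns1, a modulatory potassium channel subunit, by -0.52 (SE 0.13). The last of the 12 were Mettl7a1 at -0.82 (SE 0.16) and the zinc finger gene Zfp644 at -0.73 (SE 0.16). Exercised replicates 14 and 15 were among the 3 lowest exercised arrays for 12 of these 12 genes, replicate 11 for 10, replicate 13 for 2 and replicate 12 for 0. When exercised replicate 12 was left out, limma passed 3 genes, each at an adjusted p of 0.0228: Prpf19 at -1.11, Klf2, a transcription factor of endothelial cells, at -0.78, and Lsm14b at -0.75. Of 25 other settings, only this one passed any gene. Exercised replicate 12 was the exercised array nearest to the sedentary mean for 8 of the 12 lower genes. Leaving it out widens such differences, so these passes describe that setting and support nothing. Klf2 lay within 0.1 of the highest gene of the array on 4 of the 10 arrays, 3 sedentary ones and replicate 12, so its value is a difference from the upper end of the scale.

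The higher genes were led by Dcaf12l1, which read 11.79, 11.88, 11.90, 11.91 and 11.89 and then 12.22, 12.15, 12.09, 12.20 and 12.28, a difference of 0.31 (SE 0.07, 95% interval 0.17 to 0.46, 1.24-fold). The exercised arrays lay together and above the sedentary ones, of which replicate 6 was lowest. Itpka, an inositol trisphosphate kinase of dendritic spines, read 15.37, 15.46, 15.54, 15.41 and 15.59 and then 15.75, 15.76, 15.71, 15.81 and 15.78, a difference of 0.29 (SE 0.07). Its exercised arrays spanned a narrower range than its sedentary ones. Mycl, a transcription factor of the MYC family, read 8.10, 8.19, 8.11, 8.21 and 7.94 and then 8.47, 8.72, 8.61, 8.65 and 8.36, a difference of 0.45 (SE 0.10). The adhesion molecule gene Chl1, a relative of L1 with a role in neurite growth, differed by 0.37 (SE 0.09), the Hippo pathway kinase gene Lats1 by 0.32 (SE 0.08) and Brinp3, a neural protein inducible by retinoic acid, by 0.32 (SE 0.08). Pnpla8, a phospholipase of mitochondria and peroxisomes, differed by 0.26 (SE 0.07), and Rnf145, a ubiquitin ligase of sterol control, by 0.27 (SE 0.07). The others were Psd3 at 0.27, Rabgap1l at 0.34, Mtf1, the metal-responsive transcription factor, at 0.35 and Lrrc46 at 0.61. The sedentary and exercised arrays of Mtf1 overlapped, and 2 sedentary arrays of Lrrc46 were below the lower quartile of intensity.

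**Figure D3:**
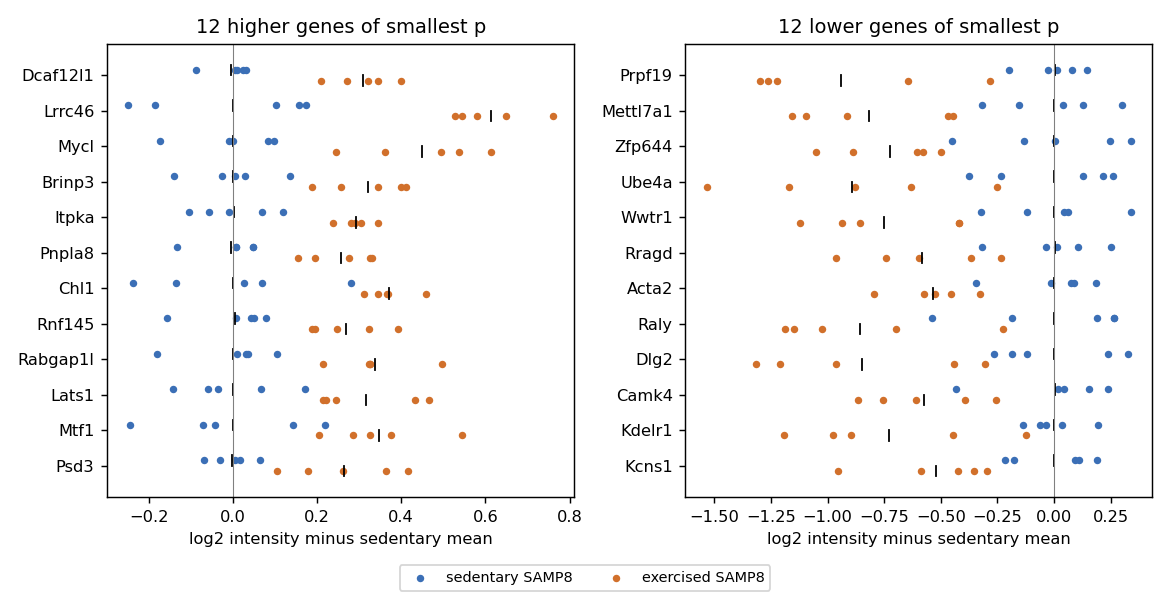
Log2 intensity of each array minus the sedentary mean of that gene (horizontal) for the 12 higher (left) and 12 lower genes (right) of smallest p, with 1 point an array and a black line at each group mean. The lower genes are spread over a wider range among the exercised arrays (orange) than the higher genes are, and no gene passed after adjustment.

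Many genes were read by more than 1 feature, which allows a check within the arrays. Of the 24 genes above, 15 had other features, and the median of those other features had the same sign in 8 and the opposite sign in 7. Opposite medians were -0.39 for Psd3, -0.21 for Lats1 and -0.10 for Rabgap1l among the higher genes. Among the lower genes they were 0.23 for Mettl7a1, 0.09 for Ube4a, 0.07 for Zfp644 and 0.06 for Camk4. The same sign did not mean the same size, with medians of -0.10 for Acta2, -0.11 for Rragd and -0.03 for Dlg2. In the higher direction they were 0.09 for Pnpla8, 0.13 for Lrrc46 and 0.72 for Mtf1. Over all 6970 genes with more than 1 feature, the features shared a sign in 47.5%. In 36 genes every feature had the same sign and each an unadjusted p under 0.05, 10 of them higher and 26 lower in exercised cortex. Whether features of a gene carry different probe sequences is not known here.

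Wwtr1 was among these 36 genes, with differences of -0.75 and -0.57 at its features, and so was Chl1 with 0.37 and 0.28. Psap, the precursor of lysosomal saposins, read 14.14, 14.26, 13.88, 14.12 and 13.89 and then 13.21, 13.91, 13.63, 12.99 and 12.66, a difference of -0.78 (SE 0.19), with -0.92 at its other feature. Only exercised replicate 12 reached into the sedentary range. Actb, the cytoplasmic actin often used as a reference gene, was lower at all 10 of its features, by -0.58 to -0.48. The RNA-binding protein gene Hnrnpa0 differed by -0.84 and -0.72, the calcium sensor gene Hpca by -0.38 and -0.39, and Tbc1d20 by -0.52 and -0.50. In the higher direction were Cox18, an assembly factor of cytochrome oxidase, at 0.33 and 0.23, and Gpcpd1, a choline metabolism enzyme, at 0.35 with 0.21 and 0.35 at its other features. No feature of these genes passed when p was adjusted over all features. Hprt, another reference gene but not among the 36, was higher by 0.31 (SE 0.11), with the same sign at 9 of its 9 other features. The list of 15 housekeeping and RNA stress genes, which holds both Actb and Hprt, had a median of -0.05. Of these 15 genes, 1 was higher and 3 lower at an unadjusted p under 0.05, beside 4.35% and 2.74% of all genes.

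The largest differences by size, among named genes above the lower quartile of intensity, belonged to genes that also varied widely within the groups. The highest was Cldn15, a tight junction claudin, with 7.09, 7.53, 8.32, 9.22 and 10.22 on the sedentary and 8.94, 9.09, 9.86, 11.15 and 11.58 on the exercised arrays, a difference of 1.65 (SE 0.75, adjusted p = 0.694). Its groups overlapped. Cep128, a centriole protein gene, differed by 1.63 (SE 0.72) and the antisense gene Fam219aos by 1.40 (SE 0.61). Across all 15 arrays, 18 genes had a correlation over 0.9 with Cldn15, among them Fam219aos (0.97), Cep128 (0.96), Dennd3 (0.96), Ugt2b34 (0.96), Dcaf12l2 (0.96) and Hmga2 (0.95), a description of arrays in 3 groups that was made after the values were seen. Of the 44 genes past 2-fold, 12 correlated with Cldn15 at over 0.8. The median of the 18 genes, each centred on its mean over the 10 SAMP8 arrays, was highest on SAMR1 replicate 2 (1.98), then on exercised replicates 15 (1.18) and 14 (1.10), and lowest on sedentary replicates 6 (-0.86) and 7 (-0.77). A sedentary SAMR1 array thus carried this group of genes at a higher level than any exercised array.

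At the other end, Cyp2a5, a cytochrome P450, differed by -1.62 (SE 0.85, adjusted p = 0.718), with 8.55, 11.80, 6.30, 7.43 and 5.78 on the sedentary and 7.05, 5.73, 6.94, 5.86 and 6.17 on the exercised arrays. Sedentary replicate 7 was the highest array, and the other sedentary arrays lay between 5.78 and 8.55. Cdk5r2, a neuronal activator of the kinase Cdk5, differed by -1.58 (SE 0.77), with a sedentary range of 10.72 to 14.24 and an exercised range of 9.90 to 13.70. Lars2, the mitochondrial leucyl-tRNA synthetase, read 15.94, 16.00, 14.86, 15.99 and 15.86 and then 13.27, 16.00, 14.60, 12.95 and 14.26, a difference of -1.52 (SE 0.45, adjusted p = 0.557). On 4 of the 10 arrays its value was within 0.1 of the highest gene of the array, at the upper end of the scale, so that higher levels there could not be read.

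The genes most often studied in exercise gave small values. Bdnf, the neurotrophin most closely tied to exercise in rodents, read 9.99, 9.93, 9.85, 10.13 and 10.31 on the sedentary and 10.29, 10.35, 10.24, 10.63 and 9.84 on the exercised arrays. Replicate 15 was the lowest of all 10 arrays while 2 other exercised arrays were above every sedentary one. The difference was 0.23 (SE 0.14, 95% interval -0.08 to 0.53, 1.17-fold, adjusted p = 0.764), and its other 10 features had a median of 0.12. Ntrk2, the Bdnf receptor TrkB, differed by 0.13 (95% interval -0.18 to 0.45), with a median of -0.03 over 20 other features. Sort1, the sortilin that sorts neurotrophin precursors, read 13.16, 13.15, 13.31, 13.21 and 13.05 and then 13.78, 13.42, 13.33, 13.60 and 13.56, a difference of 0.36 (SE 0.10, adjusted p = 0.521). Its groups did not overlap, but its other 3 features had a median of -0.08.

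Of 14 measured neurotrophins and receptors, 0 passed, and 10 were lower and 4 higher by sign, while 44.6% of all genes were lower. The median was -0.14, beside 0.02 over all genes. At an unadjusted p under 0.05, Sort1 was higher and the CNTF receptor gene Cntfr (-0.54, SE 0.19) lower. Without the dimmest 30% of genes that median was -0.04. Of 25 growth factors and receptors of vessels and nerves, 0 passed, the median was 0.06, and 5 were higher at an unadjusted p under 0.05 and 0 lower, beside 4.35% and 2.74% of all genes. That median ran from 0.03 without exercised replicate 14 to 0.13 without exercised replicate 12. The 5 were Pdgfra at 0.26 (SE 0.08), Met at 0.33 (SE 0.15), Fgfr2 at 0.28 (SE 0.13), Egfr at 0.18 (SE 0.08) and the vessel-stabilising ligand gene Angpt1 at 0.65 (SE 0.20). On each of the 10 arrays Angpt1 was below the lower quartile of intensity. Pdgfra, the receptor that marks oligodendrocyte precursors, had the same sign at 9 of its 10 other features and an unadjusted p under 0.05 at 7 of them. Vegfa, the main vessel growth factor, differed by 0.03 (95% interval -0.33 to 0.40).

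Factors that muscle, liver or fat release during exercise were measured in the cortex itself. Of 15, 0 passed and the median was 0.02. Fndc5, the precursor of irisin, differed by -0.14 (95% interval -0.49 to 0.21). Igf1 differed by -0.05 (95% interval -0.26 to 0.17), and the median of 19 insulin and IGF signalling genes was 0.04. The hormone genes Adipoq at 0.84 (SE 0.30) and Fgf21 at 0.73 (SE 0.36), and the cytokine Il6 at -1.01 (SE 0.60), gave larger values, but the first and second were below the lower quartile on each of the 10 arrays and Il6 had group means of 5.55 and 4.54, also below it.

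Among energy sensing genes, Sirt1, the NAD-dependent deacetylase, read 8.47, 8.59, 8.92, 8.84 and 8.62 on the sedentary and 7.90, 8.42, 8.44, 8.27 and 8.42 on the exercised arrays. All exercised arrays were below all sedentary ones, by a narrow margin. The difference was -0.40 (SE 0.12, 95% interval -0.66 to -0.15, 0.757-fold, adjusted p = 0.557), while its other feature gave 0.03. Of 27 sirtuins and energy sensors 0 passed, the median was 0.01, and Sirt1, Rragd and the AMP-activated kinase subunit gene Prkaa2 (-0.31, SE 0.12) were the 3 lower at an unadjusted p under 0.05, beside 2.74% of all genes. Ppargc1a, the coactivator that drives mitochondrial biogenesis, differed by -0.10 (95% interval -0.39 to 0.19). Of 23 mitochondrial biogenesis genes, 20 had a 95% interval inside 1.5-fold, beside 79.2% of all genes and 95.1% of the brightest quintile. Of 60 subunits of oxidative phosphorylation, 59 had such an interval, with a median of -0.06 and 42 below 0, while 44.6% of all genes were below 0.

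Glycolysis and lactate genes had a median of 0.01 and 24 of 24 inside 1.5-fold, beside 79.2% of all genes and 95.1% of the brightest quintile. The 3 at an unadjusted p under 0.05 were all higher, beside 4.35% of all genes higher and 2.74% lower at that level. Ldha, the lactate dehydrogenase subunit of glycolytic cells, read 14.38, 14.53, 14.63, 14.47 and 14.56 and then 14.60, 14.65, 14.84, 14.90 and 15.05, a difference of 0.29 (SE 0.11, 95% interval 0.05 to 0.53, adjusted p = 0.647). Exercised replicates 12 to 15 were above every sedentary array, while its other feature gave -0.05. Hk1, the hexokinase of brain, differed by 0.26 (SE 0.09), but its 4 other features had a median of -0.04. The lactate exporter gene Slc16a3, read by 1 feature, differed by 0.22 (SE 0.10). The lactate transporter gene Slc16a1 differed by 0.16 (95% interval -0.07 to 0.39) and the glucose transporter gene Slc2a1 of the blood-brain barrier by -0.02 (95% interval -0.35 to 0.31).

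Activity-induced genes were lower by sign in 20 of 26 (76.9%), beside 44.6% of all genes, with a median of -0.11. That share was 76.2% among ribosomal protein genes and 77.3% among endothelial markers. In the limma fit that includes the SAMR1 spread, 0 of the 26 genes reached even an unadjusted p under 0.05. Arc, a synaptic protein made in recently active neurons, read 15.57, 15.56, 14.87, 14.80 and 14.83 on the sedentary and 14.02, 13.37, 13.87, 15.14 and 15.51 on the exercised arrays, a difference of -0.74 (SE 0.74, 95% interval -2.32 to 0.84, adjusted p = 0.853). The exercised arrays formed a lower set, replicates 11, 12 and 13, and a set within the sedentary range, replicates 14 and 15. Fos, a subunit of the AP-1 factor, was likewise lower on replicates 11, 12 and 13, with replicate 15 above the sedentary range, at 9.48, 9.60, 9.53, 9.50 and 9.31 and then 8.86, 8.75, 8.80, 9.53 and 9.81, a difference of -0.33 (SE 0.59). Nr4a1, an orphan nuclear receptor, read 14.71, 15.20, 15.27, 14.80 and 15.22 and then 14.13, 14.16, 13.98, 15.17 and 15.39, a difference of -0.47 (SE 0.53).

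Npas4, a transcription factor of inhibitory synapse formation, differed in its order, with 8.42, 8.09, 7.85, 8.38 and 8.10 and then 7.75, 7.31, 7.84, 6.83 and 7.87, a difference of -0.65 (SE 0.31, adjusted p = 0.711). Here replicate 14 was the lowest array. Egr1 differed by -0.13 (SE 0.42, 95% interval -1.03 to 0.77). Its SD was 0.15 among sedentary and 0.15 among exercised arrays, while that SE also takes in the spread of the SAMR1 arrays. The mean of the 26 genes, each centred on its mean over the 10 arrays, was 0.14, 0.24, 0.03, 0.08 and 0.03 on the sedentary and -0.13, -0.38, -0.22, 0.02 and 0.20 on the exercised arrays. These intervals are wide: 11 of the 26 genes lay inside 1.5-fold, beside 79.2% of all genes. The SAMR1 arrays, which share the estimate of spread, ranged from -1.16 to 0.47 on the same score. The intervals and p-values of these genes thus reflect the SAMR1 spread too. With the SAMP8 arrays alone, the adjusted p of Arc was 0.693 and that of Fos 0.729. Without exercised replicates 14 and 15, the median of the 26 genes was -0.22. That pair had the highest exercised scores and was left out after the values were seen, so this move tests nothing.

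Activity-induced genes are classically switched on through the factor CREB, which binds the cyclic AMP response element (CRE, letters TGACGTCA) and its shorter core TGACG, and through serum response factor, which binds the CArG box. The promoter windows of 3 of them around the annotated start (RefSeq, GRCm38.p6) are shown because their values on each array are given above. They are Fos at chr12:85473640-85473939 on the plus strand, Npas4 at chr19:4989922-4990221 on the minus strand and Nr4a1 at chr15:101266596-101266895 on the plus strand. Each is written 5′ to 3′ in the direction of transcription, with every core (TGACG, or CGTCA where it lies on the opposite strand) in capitals.
Fos: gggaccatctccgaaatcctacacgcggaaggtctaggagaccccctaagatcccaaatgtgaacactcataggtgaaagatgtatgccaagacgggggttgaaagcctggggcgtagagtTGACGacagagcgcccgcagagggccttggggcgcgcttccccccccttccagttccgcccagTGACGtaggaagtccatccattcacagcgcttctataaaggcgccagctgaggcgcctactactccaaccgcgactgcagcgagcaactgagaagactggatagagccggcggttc
Npas4: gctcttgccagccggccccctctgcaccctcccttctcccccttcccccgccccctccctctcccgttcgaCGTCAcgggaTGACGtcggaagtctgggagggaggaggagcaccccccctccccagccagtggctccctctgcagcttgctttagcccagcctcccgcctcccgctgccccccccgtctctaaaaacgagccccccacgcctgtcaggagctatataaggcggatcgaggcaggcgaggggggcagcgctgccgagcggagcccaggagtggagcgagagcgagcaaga
Nr4a1: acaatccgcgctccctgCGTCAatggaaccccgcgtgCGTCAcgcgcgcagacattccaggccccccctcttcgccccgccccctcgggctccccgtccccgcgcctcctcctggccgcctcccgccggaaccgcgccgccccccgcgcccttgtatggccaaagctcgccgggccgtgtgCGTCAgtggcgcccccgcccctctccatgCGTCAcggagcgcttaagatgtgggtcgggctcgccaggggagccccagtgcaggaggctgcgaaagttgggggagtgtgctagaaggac
The windows hold 2, 2 and 4 cores, 0 full CREs and 0 CArG boxes. Of 32851 promoter windows of the same length, 20.8% hold the core on either strand, 1.79% a full CRE, whose letters include the core, and 1.63% a CArG box. These are matches of letters only, and a motif outside the window is not counted.

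Synaptic genes gave values in both directions. Of 26 glutamate receptor and postsynaptic genes, 0 passed, the median was -0.03, and 4 were lower and 2 higher at an unadjusted p under 0.05, beside 2.74% and 4.35% of all genes. Grm5, a metabotropic glutamate receptor, read 13.11, 13.10, 13.04, 13.17 and 12.79 and then 12.06, 12.82, 12.58, 12.64 and 11.38, a difference of -0.75 (SE 0.21, adjusted p = 0.534). Its 3 other features had the same sign but smaller sizes, with a median of -0.33 and a range of -0.40 to -0.00036. Exercised replicate 15 was the lowest and replicate 12 reached into the sedentary range. Of 24 presynaptic vesicle genes the median was 0.04, with Syp, the vesicle protein synaptophysin, at 0.22 (SE 0.09) and the active zone gene Pclo at 0.20 (SE 0.08). Of 23 GABA and interneuron genes, 4 were lower and 3 higher at that level, beside the same 2.74% and 4.35%. The lower ones included the receptor subunit gene Gabra4 at -0.46 (SE 0.12), whose groups did not overlap, and Tac1 at -0.73 (SE 0.25), and Calb1, the calcium buffer of interneurons, was among the higher at 0.22 (SE 0.08).

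The Hippo pathway, a kinase cascade that holds the coactivators YAP and TAZ out of the nucleus, had 0 of 21 members passing and a median of -0.08. Both coactivator genes were lower at an unadjusted p under 0.05, Wwtr1 at -0.75 and Yap1 at -0.41 (SE 0.17), with the kinase gene Taok1 at -0.48 (SE 0.16), Amotl2 at -0.30 (SE 0.12) and Vgll4 at -0.27 (SE 0.11). These 5 of 21 stand beside 2.74% of all genes lower at that level. The 2 higher genes at that level were the kinase Lats1 at 0.32 and its adaptor Mob1b at 0.35 (SE 0.10), beside 4.35% of all genes. The other feature of Lats1 gave -0.21, and the mean over all features of Mob1b gave -0.08. The Hippo list was chosen with earlier results of these data known, so these counts describe it and support nothing. Among 29 splicing factors 0 passed and the median was 0.08; beside Prpf19, genes of partners in the same complex, Cdc5l, Plrg1 and Bcas2, gave 0.11, 0.08 and 0.14.

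Protein quality control, stress and ageing lists gave medians under 0.1 in size. They were -0.05 for 24 heat shock and unfolded protein genes, 0.02 for 20 autophagy and lysosome genes, 0.0012 for 28 proteasome subunits, -0.02 for 27 antioxidant genes and -0.03 for 18 p53 and senescence genes. All 28 proteasome subunits and all 42 ribosomal protein genes had a 95% interval inside 1.5-fold, beside 79.2% of all genes and 95.1% of the brightest quintile. The chaperone gene Hspa1a differed by 0.05 (95% interval -0.29 to 0.38). Cdkn1a, the cell cycle inhibitor p21, read 8.42, 7.51, 8.59, 8.47 and 8.06 and then 7.61, 8.07, 7.93, 7.24 and 7.66, a difference of -0.51 (SE 0.21, adjusted p = 0.675), with the same sign at 9 of its 9 other features. Sedentary replicate 7 lay among the exercised arrays. In the amyloid and tau list of 22 genes, 4 were higher and 3 lower at an unadjusted p under 0.05, beside 4.35% and 2.74% of all genes, among them the precursor gene App at 0.22 (SE 0.09), the alpha-secretase gene Adam10 at 0.32 (SE 0.13) and the gamma-secretase subunit gene Aph1a at -0.51 (SE 0.20).

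Stress hormone and clock genes, which exercise and the hour of sampling can both move, had medians of -0.04 over 17 glucocorticoid-responsive genes and -0.02 over 21 clock genes. Klf9, a target of the glucocorticoid receptor, read 11.58, 11.98, 11.65, 11.72 and 11.84 and then 11.34, 11.24, 11.56, 11.37 and 11.45, a difference of -0.36 (SE 0.10, adjusted p = 0.539) with no overlap. Fkbp5, another such target, differed by -0.13 (95% interval -0.34 to 0.08). The clock output gene Dbp differed by -0.02 (95% interval -0.33 to 0.29). The labels do not give the hour of sampling. Inflammation and complement genes had a median of -0.03 over 22 members. Ccl19, a chemokine, was at 15.02, 15.04, 15.03, 14.86 and 14.98 and then 15.41, 14.96, 14.99, 15.12 and 15.26, a difference of 0.16 (95% interval -0.06 to 0.39).

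**Figure D4:**
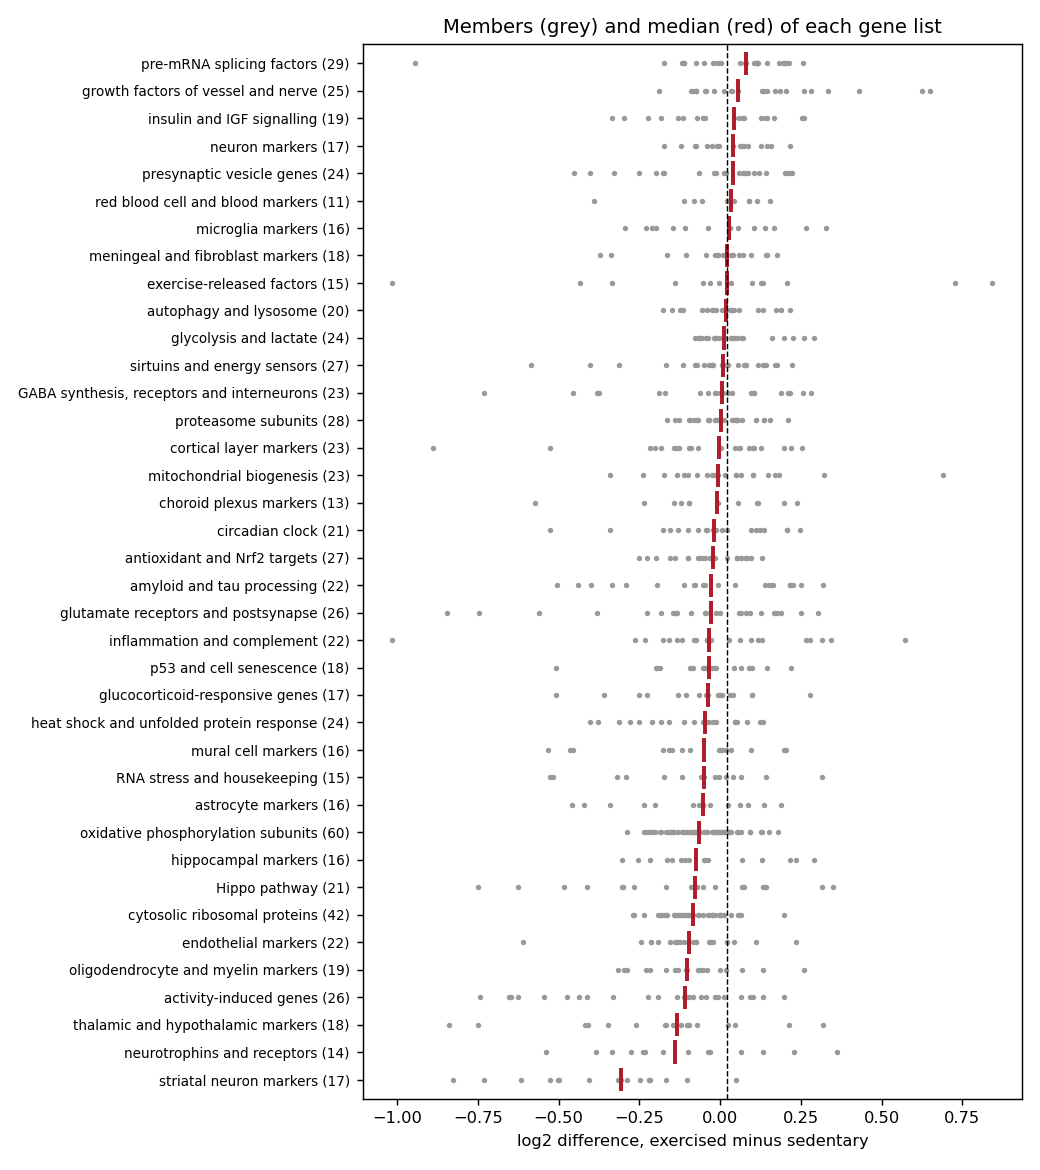
Difference of every measured member (grey points, log2 units) and median (red bar) of the 38 gene lists, with the number measured in brackets and the median of all genes as a dashed line at 0.02. The striatal list has the lowest median, -0.31, and 33 of the 38 medians are under 0.1 in size.

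Over all 38 lists, 834 of 917 entries were measured, covering 799 distinct genes. Of these, 0 passed, and 34 were higher and 51 lower at an unadjusted p under 0.05, beside 4.35% and 2.74% of all genes. Together they were 10.6%, beside 7.08% of all genes and 8.44% of the genes left without the dimmest 30%. A 95% interval inside 1.5-fold was found for 641 of the 799 distinct genes (80.2%), beside 79.2% of all genes. The lists were chosen with earlier results of these data known, so their counts describe them and support nothing.

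Cell type markers in whole tissue cannot tell fewer cells of a type from less RNA per cell. Neuron markers had a median of 0.04, with 17 of 17 inside 1.5-fold, beside 79.2% of all genes and 95.1% of the brightest quintile. Astrocyte markers had a median of -0.05, microglia 0.03, endothelium -0.10, mural cells -0.05, meninges and fibroblasts 0.02, and blood 0.03. Gfap, the filament of reactive astrocytes, differed by -0.24 (95% interval -0.53 to 0.06), and the water channel gene Aqp4 of astrocyte endfeet by -0.46 (SE 0.16, adjusted p = 0.618). Oligodendrocyte and myelin markers had a median of -0.10 and 15 of 19 inside 1.5-fold. Without exercised replicates 14 and 15, a pair chosen after the values were seen, that median was -0.02. The enzyme gene Cnp of myelin differed by -0.29 (SE 0.17), and Mbp, the basic protein of myelin, by -0.06 (SE 0.10).

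Among the lists of neighbouring brain regions, striatal markers gave the largest median. They were lower by sign in 16 of 17, beside 44.6% of all genes, with a median of -0.31. At an unadjusted p under 0.05, 8 of 17 were lower, beside 2.74% of all genes. Pde10a, the phosphodiesterase of striatal neurons, read 9.06, 9.41, 9.19, 9.08 and 9.12 and then 8.71, 9.08, 8.42, 8.09 and 7.42, a difference of -0.83 (SE 0.25, adjusted p = 0.580). Exercised replicate 15 was lowest and replicate 12 overlapped the sedentary arrays. The other feature of Pde10a gave 0.17. The dopamine receptor gene Drd2 differed by -0.62 (SE 0.22), Gng7 by -0.53 (SE 0.17), Rgs9 by -0.50 (SE 0.18) and Ppp1r1b, which encodes DARPP-32, by -0.41 (SE 0.17).

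The striatal score of each array, the mean of its 17 centred markers, was 0.05, 0.18, 0.42, 0.12 and 0.14 on the sedentary and -0.05, 0.12, -0.17, -0.36 and -0.44 on the exercised arrays. Exercised replicates 14 and 15 were lowest, and replicate 12 lay within the sedentary range. Without replicates 14 and 15 the list's median was -0.17. That pair was chosen after the values were seen, and leaving out the lowest arrays moves the median upwards, so this tests nothing. Replicates 14 and 15 were also among the 3 lowest exercised arrays for each of the 12 lower genes of smallest p, and replicate 12 for 0 of them. The part of striatal content in those values was not tested. Thalamic and hypothalamic markers had a median of -0.13, led by Zic1, a transcription factor of the septum and thalamus, at -0.75 (SE 0.24) at both features. Sedentary replicate 7 had the highest score of that list, 0.59. Choroid plexus markers had a median of -0.01 but 0 of 13 inside 1.5-fold, beside 79.2% of all genes. Their score ran from -0.62 to 0.67 on the sedentary and from -0.97 to 0.59 on the exercised arrays. Cortical layer markers had a median of -0.0048, with 19 of 23 inside 1.5-fold.

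**Figure D5:**
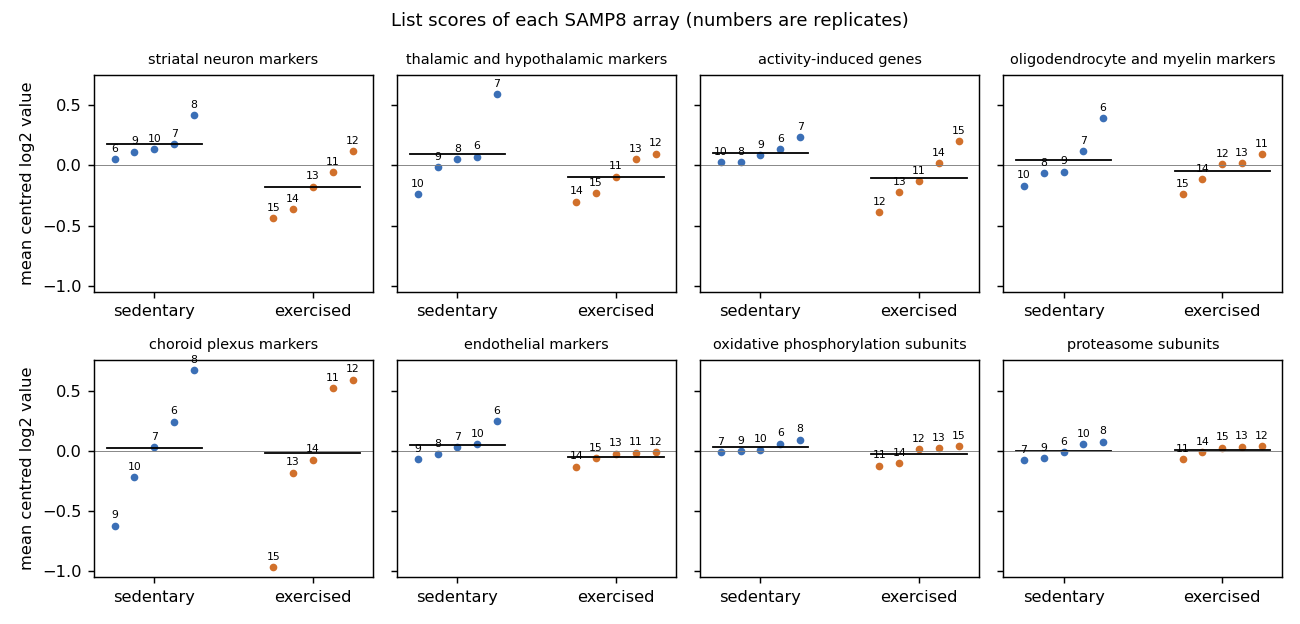
Score of 8 gene lists on each SAMP8 array (mean over its genes of the log2 intensities after centring each gene on the 10 arrays, vertical), with replicate numbers beside the points and a black line at each group mean. Striatal markers are lowest on exercised replicates 14 and 15 (-0.36 and -0.44), choroid plexus markers spread most, and oxidative phosphorylation and proteasome subunits stay close to 0.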

How the data were processed

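The authors deposited linear intensity values of the Cy3 channel, with a column for each array, and log2 was taken here from the deposited intensity with no pseudocount. The submitters' processing notes name limma without a step or version. Neither the background correction nor the normalization is stated, and no slide or scan date was at hand, so batches were not tested. At 96.2% of ranks the sorted columns lay within 0.05 log2 units of each other, so they were taken as normalized already. Of 45220 features, 34479 had values and 27968 of those had 1 gene symbol in GEO's platform annotation. Each of 16401 genes was represented by its feature of highest mean over the 15 arrays.

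The model, lmFit with eBayes of limma 3.58.1 (R 4.3.3), had the 3 groups of 15 arrays and was tested two-sided, with Benjamini-Hochberg adjustment and a threshold of 0.05. Tables and figures were made with Python 3.11.15, pandas 2.3.3 and matplotlib 3.10.9, and the steps were tested on simulated data. No depth exists for arrays; their number limits the precision.

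Genes were named by rule: the 12 higher and 12 lower of smallest p, up to 3 of smallest p in each list, 20 genes tied to exercise or to the study, 10 with agreeing features, and the 3 largest differences each way. Other list members, the genes that follow Cldn15, Lsm14b and the markers used to check the tissue were named after their values were seen. The comparison and the 38 lists were chosen with earlier results of these data known. Promoter sequences are RefSeq's, GRCm38.p6.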

Additional observations from a re-analysis of the deposited data

Results flagged for a closer look

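In groups of 5 arrays, 1 array stood apart from the other 4 in 17 of 388 groups checked (4.38%), and chance alone marks about 1 in 20. The single arrays were as follows, in log2 units. On sedentary replicate 6, Dcaf12l1 was low at 11.79 (others 11.88 to 11.91), Ly6c1, an endothelial marker, was high at 9.64 (others 9.32 to 9.38), and the score of the neurotrophin list was high at 0.088. On sedentary replicate 7, Pnpla8 was low at 12.71, Ppard at 4.05 and the proteasome subunit gene Psma1 at 12.39, and Ppargc1a was high at 11.57 (others 11.42 to 11.44). On sedentary replicate 8, Lars2 was low at 14.86 (others 15.86 to 16.00), and on sedentary replicate 9, Dbp was low at 13.42. On sedentary replicate 10, Angpt1 was low at 4.38 and Calb1 high at 13.29.

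Among the exercised arrays, Aplp1 was low on replicate 11 at 15.35. On replicate 12, Bgn was high at 7.16 and Cdk5r2 at 13.70 (others 9.90 to 10.80). On replicate 15, Ppargc1a was low at 10.73 (others 11.37 to 11.62), Otx2, a choroid plexus factor, was low at 4.05 (others 5.52 to 5.97), and Gpcpd1 was high at 10.45 (others 10.13 to 10.19). These values lay on 8 of the 10 arrays, with 0 on exercised replicates 13 and 14.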

How the results depend on the processing

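The counts over all genes were computed under 25 other settings, and the named genes and list medians under 24 of them, without the dimmest 30% only for genes that remain; of these settings, leaving out exercised replicates 14 and 15 together was chosen after seeing the data. The number of genes past the threshold was 0 in all of them except 1: without exercised replicate 12 it was 3. Over the settings that leave out 1 array, the number past the threshold ran from 0 to 3, genes with a 95% interval inside 2-fold from 15236 to 15483, inside 1.5-fold from 12393 to 13068, and at an unadjusted p under 0.05 from 789 to 1426. With every one of 34479 features tested in place of 1 a gene, these counts were 31935, 25085 and 2289. Without exercised replicates 14 and 15 the last count was 580. Among 156 named genes, 36 of 3726 values had the opposite sign, in 16 genes, and none of these genes had passed. With the mean of all features they were Psd3 (-0.26), Clock (-0.0026), Csnk1d (-0.049), Gabra3 (0.16), Mob1b (-0.085), Map2 (-0.081), Ntrk2 (-0.0026) and Hspa1a (-0.071). With a floor at the lower quartile Crabp2, Slc4a5 and Ngp were each at 0.0047. With array weights Vegfa was at -0.063 and Dbp at 0.053, and without exercised replicates 14 and 15 Vegfa was at -0.18, Igf1 at 0.036, Ppargc1a at 0.023, Hspa1a at -0.058 and Dbp at 0.0072. Over the settings that leave out 1 array, Vegfa ran from -0.081 to 0.15, Igf1 from -0.11 to 0.0028, Ppargc1a from -0.17 to 0.056, Hspa1a from -0.064 to 0.15, Slc2a1 from -0.13 to 0.055 and Dbp from -0.12 to 0.11. Of 912 list medians, 11 moved by more than the spread between arrays. The cause was not tested. No paired analysis was possible because the groups share no replicate number. Intervals were wider for dim genes, and the number of arrays limits all of them.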
